A study of Mus musculus with 12 samples.

Results

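CT26 is a colon carcinoma line of the BALB/c mouse, and the expression profile of its untreated cells is described here gene by gene. Of the 12 arrays in the series, the 3 labelled CONTROL (CTR replicates 1 to 3) carry the untreated cells, and they were chosen by that label. CTR cells grew for 48 hours at 10% serum, with glucose at 1.0 g/L. The other 9 arrays, 3 a group, were used only for comparison: cells starved over the same 48 hours (STS, 1% serum and glucose at 0.5 g/L), cells given the platinum drug oxaliplatin in the full medium (OXP, 10 µM in the labels, added at 24 hours, a dose on which the sources do not agree) and cells given both treatments (STS+OXP). All 12 arrays carry the same cell line, and no source used here says if the 3 cultures behind a group were independent. The SDs and p-values below therefore measure the spread between arrays, which may be technical.

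The values are log2 signals of a mouse 3′ expression array, normalised by the authors with the RMA method. Each of the 17097 genes is represented by 1 probe set, the one of its single-gene probe sets with the highest mean over the 12 arrays. A signal has a meaning only against a background, and 23 control probe sets for nonspecific binding gave one on each array. The control made only of G and C stood apart from the other 22. It read 5.52, 5.50 and 5.81 on CTR 1, 2 and 3, and the highest of the other 22 read 3.72, 3.60 and 3.67. Both were kept, as an upper and a lower limit, the lower one after the control values were seen. A gene above the upper limit on all 3 CTR arrays is called expressed. A gene above the lower limit on all 3 arrays but not above the upper limit on all 3 is called dim. A gene above the lower limit on none of the 3 is called at background.

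By these limits 5228 of the 17097 genes were expressed (30.6%), 3911 were dim (22.9%) and 7214 were at background (42.2%). The remaining 744 crossed the lower limit on 1 or 2 arrays. When the probe sets of each gene were averaged in place of taking the brightest, 3640 genes were expressed (21.3%), and with a margin of 1 log2 unit over the upper limit 3804 were (22.2%). List counts that these choices moved by over 1.5 times are given with the lists. The limits were set against genes whose state is known. All 23 housekeeping genes measured were expressed, with mean signals from 7.58 to 12.35. Of 82 odorant and pheromone receptor genes, which a colon line should not use, none was expressed, 2 were dim and 78 were at background. Of 57 keratin-associated, crystallin and casein genes, none was expressed and 7 were dim. A dim gene is therefore not counted as expressed below. A gene at background is not shown to be silent either, because a probe set can respond weakly. *Pdia3*, a protein-folding enzyme of the endoplasmic reticulum that cells in general use, read 3.49, 3.40 and 3.47, at background. Of the 7214 genes at background, 47 had another probe set above the lower limit. The choice of the brightest probe set keeps this count low, and only 7180 of the 17097 genes have several. It does not measure how often a weak probe set hides a gene. Signals of different genes come from different probes and are not ranked against each other. In a bulk RNA sample, fewer cells using a gene and less RNA per cell cannot be told apart.

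The colon epithelium is a sheet of cells joined by E-cadherin and claudins and framed by keratins. The homeobox factors Cdx1 and Cdx2 and the nuclear receptor Hnf4a keep its intestinal identity. Carcinoma cells can lose this programme and take up mesenchymal genes such as vimentin, N-cadherin and fibronectin. Repressors of the Zeb, Snail and Twist families, which bind E-box sequences, are known for switching epithelial genes off.

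Most epithelial genes were at background in CTR. Of 27 measured junction and keratin genes, 2 were expressed, 3 were dim and 21 were at background. *Cdh1*, which encodes E-cadherin, read 2.24, 2.20 and 2.13 on CTR 1, 2 and 3, and all 3 arrays lay below the lower limit by more than 1 log2 unit. The tight junction genes *Cldn3* (3.34 ± 0.11, mean ± SD, n = 3 here and below), *Cldn4* (3.43 ± 0.16), *Cldn7* (2.67 ± 0.04) and *Ocln* (2.72 ± 0.03) were at background as well. The keratin genes of simple epithelia *Krt18* (3.02 ± 0.08) and *Krt19* (2.95 ± 0.04) were at background, and *Krt8* read 3.73, 3.58 and 3.51, above the lower limit on CTR 1 only. *Epcam*, an adhesion molecule of epithelial cells, was dim at 4.95, 4.51 and 4.91. The exceptions were *Krt20*, a keratin of differentiated enterocytes, at 6.69, 6.80 and 6.82, and *Tjp1*, a scaffold of tight junctions that many other cells also use, at 8.72, 8.79 and 8.70.

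The regulators of the epithelial state followed the same division. Of 13 measured factors, 9 were at background, among them the splicing factors *Esrp1* (3.30 ± 0.12) and *Esrp2* (2.94 ± 0.05) and the transcription factor *Ovol1* (2.62 ± 0.10). *Grhl2* (4.86 ± 0.10), *Klf5* (5.02 ± 0.30) and *Elf3* (3.85 ± 0.12) were dim. *Klf4*, a zinc finger factor of differentiated epithelium and of fibroblasts, was expressed at 9.25, 9.27 and 9.45.

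The promoter windows of the junction and keratin genes are shown because the E-box that Zeb and Snail factors bind, CACCTG or its reverse complement CAGGTG, was common in them. A window runs from 250 bases before to 50 bases after a RefSeq transcript start (GRCm38.p6). Windows were found for 19 of the 27 genes, and 15 of the 19 held the motif on either strand in at least 1 of their windows (78.9%). Among all measured genes with a window, 3112 of 13605 held it (22.9%). Of the junction and keratin genes at background, 12 of 13 held it. Among all genes with a window, 1470 of 5579 at background (26.3%) and 760 of 4328 expressed (17.6%) held it. The share was 2 of 21 in the mesenchymal list. A match of letters does not show that a factor bound there, and no binding was measured. In the windows printed here, read 5′ to 3′ on the strand of the gene, capitals mark the motif. They are *Cldn4* (chr5:134946885-134947184, reverse strand), *Cldn7* (chr11:69965171-69965470, forward strand, the window of its second listed start, since that of the first holds no match), *Krt8* (chr15:102004293-102004592, reverse strand) and, for contrast, the expressed *Vim* (chr2:13574061-13574360, forward strand), which has no capitals because it holds no match.
Cldn4: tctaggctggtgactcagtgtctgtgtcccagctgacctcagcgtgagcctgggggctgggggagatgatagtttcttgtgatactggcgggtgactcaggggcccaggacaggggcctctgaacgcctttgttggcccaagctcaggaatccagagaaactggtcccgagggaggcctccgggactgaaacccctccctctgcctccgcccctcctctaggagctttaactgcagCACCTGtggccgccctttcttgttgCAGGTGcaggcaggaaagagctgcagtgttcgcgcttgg
Cldn7: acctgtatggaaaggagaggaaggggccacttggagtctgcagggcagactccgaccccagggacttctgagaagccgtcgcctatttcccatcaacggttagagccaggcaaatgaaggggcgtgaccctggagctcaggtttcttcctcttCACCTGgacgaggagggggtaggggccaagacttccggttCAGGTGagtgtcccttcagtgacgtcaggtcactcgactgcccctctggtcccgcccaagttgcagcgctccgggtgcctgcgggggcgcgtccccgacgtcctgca
Krt8: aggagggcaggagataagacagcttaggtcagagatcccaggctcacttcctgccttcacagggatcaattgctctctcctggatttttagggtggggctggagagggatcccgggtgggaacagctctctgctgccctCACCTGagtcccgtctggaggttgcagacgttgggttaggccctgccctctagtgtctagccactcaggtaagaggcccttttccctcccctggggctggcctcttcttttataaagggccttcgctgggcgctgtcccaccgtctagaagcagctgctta
Vim: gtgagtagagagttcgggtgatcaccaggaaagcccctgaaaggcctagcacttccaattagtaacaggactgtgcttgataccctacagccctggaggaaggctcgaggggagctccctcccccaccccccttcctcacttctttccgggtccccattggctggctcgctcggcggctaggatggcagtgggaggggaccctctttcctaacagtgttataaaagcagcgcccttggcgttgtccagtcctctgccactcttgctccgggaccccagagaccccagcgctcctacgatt

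In the *Cldn4* window the motif starts at bases 237 and 262, in *Cldn7* at bases 154 and 194 and in *Krt8* at base 140. None of these 3 genes passed the upper limit on any CTR array.

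Some mesenchymal genes were expressed. Of 36 measured, 15 were expressed (41.7%, not far from the 30.6% of all genes), 7 were dim and 13 were at background. *Vim*, the intermediate filament vimentin, read 12.18, 12.31 and 12.29, and the calcium-binding protein gene *S100a4* read 12.04 ± 0.03. *Cdh2*, N-cadherin, read 7.33, 7.63 and 7.62, so this cadherin was expressed on the arrays where *Cdh1* was at background. The matrix genes *Fn1* (9.56 ± 0.04), *Sparc* (10.12 ± 0.04), *Col3a1* (9.65 ± 0.05) and *Col5a1* (8.29 ± 0.08) were expressed.

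Repressors of the epithelial programme differed within the Zeb and Snail families. *Zeb1* read 7.09, 7.04 and 7.14 and *Snai2*, also called Slug, read 6.90, 7.04 and 7.18. *Twist1* (7.46 ± 0.08) and *Twist2* (8.93 ± 0.02) were expressed too. *Zeb2* was dim at 5.06 ± 0.14, and *Snai1* read 3.09, 3.26 and 3.21, at background on all 3 arrays.

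The mesenchymal profile was not that of a fibroblast throughout. *Col1a1*, a chain of type I collagen, was dim at 4.75, 4.75 and 4.67. The fibroblast surface marker *Thy1* (2.82 ± 0.16), the cadherin *Cdh11* (2.52 ± 0.03) and the smooth muscle actin gene *Acta2* (3.64 ± 0.05) were at background, as were *Dcn*, *Lum*, *Postn* and *Fap*. *Pdgfrb*, a receptor of fibroblasts and pericytes, read 5.91, 5.69 and 5.42, and its arrays lay on both sides of the upper limit.

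**Figure D1:**
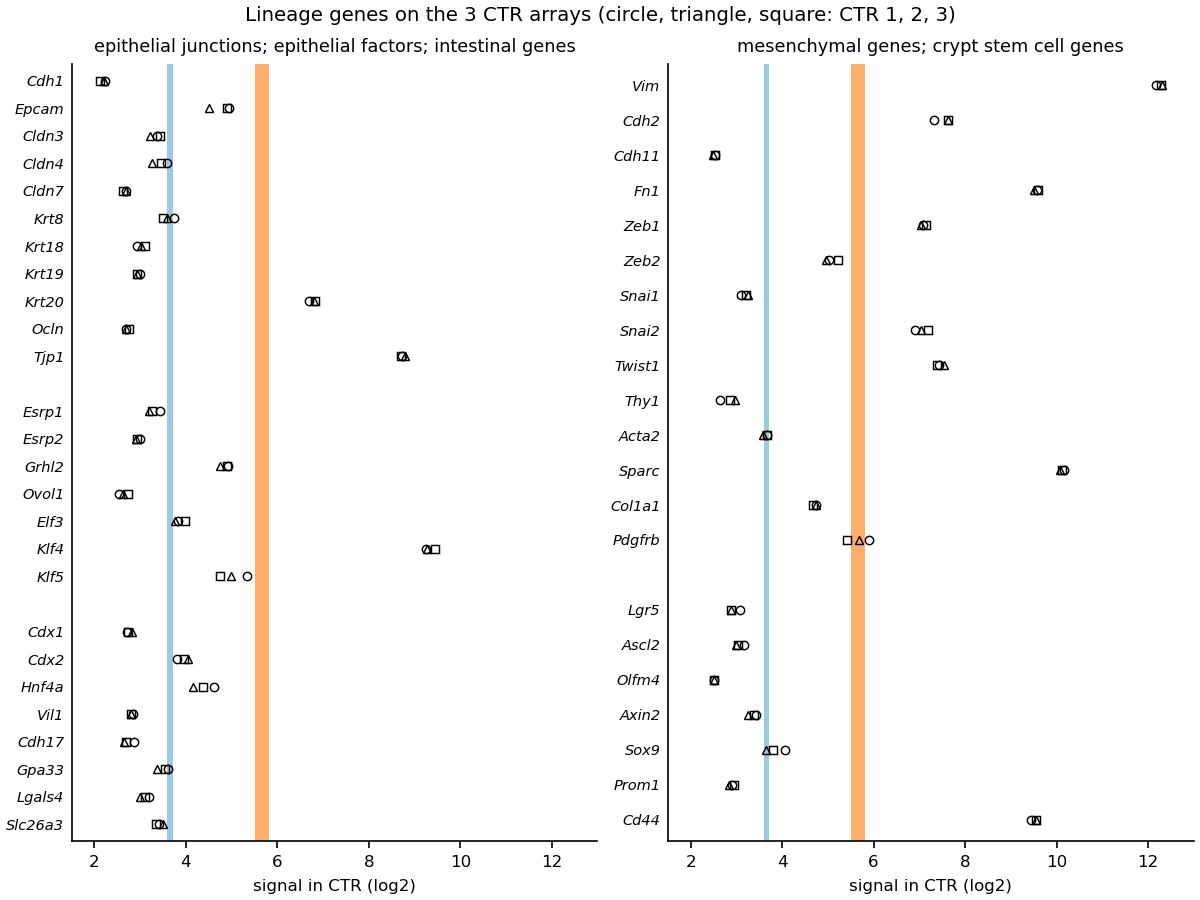
Signal (log2, x axis) of the lineage genes on CTR 1 (circle), 2 (triangle) and 3 (square). The blue and orange bands span the lower limit (3.60 to 3.72) and the upper limit (5.50 to 5.81) of the 3 arrays. *Cdh1*, the claudins and *Ocln* lie at or left of the blue band, and *Vim*, *Fn1*, *Sparc*, *Zeb1*, *Snai2* and *Twist1* lie right of the orange band.

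Intestinal identity genes were largely without signal. Of 25 measured factors and enterocyte genes, 20 were at background (80%, against 42.2% of all genes). *Cdx1* read 2.71, 2.82 and 2.74, and the brush border gene *Vil1* (2.81 ± 0.02), the cadherin *Cdh17* (2.73 ± 0.12) and the chloride exchanger *Slc26a3* (3.42 ± 0.07) were at background. *Cdx2* (3.80, 4.05 and 3.95) and *Hnf4a* (4.62, 4.16 and 4.38) were dim on all 3 arrays. The pioneer factor *Foxa1* was the 1 gene of this list that was expressed, at 5.91, 6.27 and 6.20, and with the margin of 1 log2 unit none was. None of 21 measured genes of goblet, Paneth and enteroendocrine cells was expressed. The goblet cell peptide gene *Tff3* was dim at 4.73 ± 0.25, and *Spdef*, *Atoh1*, *Lyz1*, *Chga* and *Neurod1* were at background, between 2.82 and 3.15.

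Markers of crypt stem cells and of tumour-initiating cells were divided. *Lgr5*, the receptor that marks cycling crypt stem cells, read 3.08, 2.89 and 2.88, *Ascl2* read 3.17, 3.0 and 3.03, *Olfm4* read 2.50, 2.52 and 2.50 and *Axin2* read 3.42, 3.25 and 3.38. The pentaspan protein gene *Prom1* was at background too, at 2.89 ± 0.06. *Cd44*, the hyaluronan receptor used as a marker of tumour-initiating cells, was expressed at 9.44, 9.55 and 9.55. *Bmi1* (9.52 ± 0.13), *Lrig1* (7.86 ± 0.13), *Clu* (7.15 ± 0.15) and *Anxa1* (11.79 ± 0.02) were expressed, which made 5 of 18, or 3 from the probe sets without a suffix, which fewer genes have.

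Markers of other cell types, which would show in a mixed sample, gave little signal. None of 16 T, B and NK cell markers, 15 endothelial and pericyte markers and 19 erythroid, hepatocyte, muscle, neural and melanocyte markers was expressed. Their summed classes were 9 dim genes and 35 at background. Of 15 macrophage and dendritic cell markers, *Cd14* alone was expressed (7.15, 6.97 and 6.94). The pan-leukocyte gene *Ptprc* (2.78 ± 0.11), *Tyrobp* (2.93 ± 0.10) and *Itgam* (2.60 ± 0.11) were at background, and so were the endothelial genes *Pecam1* (2.77 ± 0.13), *Cdh5* (2.83 ± 0.04) and *Vwf* (2.40 ± 0.08). *Cd3e* read 4.51, 4.43 and 4.38 and was dim.

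Receptor tyrosine kinases carry growth factor signals across the membrane, and few of them were expressed. Of 51 measured, 7 were expressed, 15 were dim and 25 were at background. With the average of all probe sets 2 were expressed. The expressed receptors were *Met*, the receptor for hepatocyte growth factor (7.55, 7.82 and 7.71), *Igf1r* (6.64, 6.66 and 6.64), *Insr* (5.86, 5.89 and 5.90), *Fgfr1* (7.33, 7.54 and 7.45), the collagen receptor *Ddr2* (8.07, 8.05 and 8.08), *Epha2* (7.07, 7.26 and 7.26) and the Wnt co-receptor *Ryk* (7.81, 7.73 and 7.81). *Insr* was the one nearest to the upper limit, and *Ephb4*, which read 5.77, 5.52 and 5.44, fell just outside.

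The ERBB family, the targets of drugs given in colon carcinoma, was not among the expressed receptors. *Egfr* was dim at 4.96, 4.76 and 4.73, and *Erbb2* was dim at 4.09, 4.14 and 4.09. *Erbb3* read 3.83, 3.60 and 3.40, above the lower limit on 2 of 3 arrays, and *Erbb4* read 2.92, 2.77 and 2.96, at background. Among the fibroblast growth factor receptors *Fgfr1* was the expressed member, whereas *Fgfr3* (3.18 ± 0.09) and *Fgfr4* (3.46 ± 0.13) were at background and *Fgfr2* read 3.85, 3.48 and 3.77, around the lower limit. *Ddr1*, the discoidin receptor of epithelia, was dim at 4.80 ± 0.14 where *Ddr2*, that of mesenchyme, was expressed. *Kit* (3.08 ± 0.18) and *Mst1r* (2.85 ± 0.04) were at background.

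Ligands were not always expressed together with a receptor. Of 42 measured growth factor ligands, 9 were expressed (21.4%), or 5 from the probe sets without a suffix. *Ereg*, epiregulin, a ligand of Egfr and Erbb4, read 9.19, 9.17 and 9.16, and *Hbegf* read 6.10, 6.17 and 6.32. The macrophage growth factor *Csf1* read 8.81, 8.77 and 8.88, and its receptor *Csf1r* read 3.91, 3.47 and 3.67, at the lower limit. *Vegfa*, the main angiogenic factor, read 7.49, 7.53 and 7.57, with *Vegfb* at 6.97 ± 0.11 and *Pdgfc* at 7.71 ± 0.02. The neurotrophin *Bdnf* was expressed at 7.28 ± 0.11, and its receptor *Ntrk2* was dim at 4.93 ± 0.08. The ligand of Met, *Hgf* (3.21, 3.25 and 3.26), and the ligands of Igf1r, *Igf1* (3.56, 3.40 and 3.35) and *Igf2* (3.20, 3.07 and 3.07), were at background.

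Signalling by TGF-β and BMP starts at paired type I and type II receptors and runs through Smad proteins to Smad4. Of 35 members measured, 19 were expressed (54.3%, against 30.6% of all genes). This excess depended on the choice of probe set, since 8 were expressed with the average of all probe sets (22.9%, against 21.3% of all genes). Both TGF-β receptors were expressed, *Tgfbr1* at 6.0, 6.54 and 6.13 and *Tgfbr2* at 7.20, 7.59 and 7.45, with the co-receptor *Tgfbr3* at 7.95 ± 0.18. *Smad2* (6.65 ± 0.20), *Smad3* (6.60 ± 0.10) and the common partner *Smad4* (8.02 ± 0.06) were expressed. Among the ligands, *Tgfb1* was dim at 4.04, 4.15 and 4.27, *Tgfb2* was at background (2.95 ± 0.09), and *Inhba* (7.12 ± 0.08), *Bmp2* (7.01 ± 0.12) and *Bmp4* (7.04 ± 0.22) were expressed. The BMP antagonist *Grem1* read 9.42, 8.92 and 9.21. The BMP type I receptor *Bmpr1a* was at background at 2.89, 2.65 and 2.80, while *Acvr1* (7.09 ± 0.13) and *Bmpr2* (6.97 ± 0.11) were expressed.

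In the Wnt pathway the core was expressed and the feedback targets named below were not. Colon tumours often carry a constant Wnt signal after loss of Apc, and *Axin2*, *Lgr5*, *Nkd1*, *Notum* and *Rnf43* are then induced as its targets and feedback regulators. β-catenin (*Ctnnb1*) read 9.77, 9.84 and 9.85 and *Apc* read 6.68, 6.89 and 6.72, with the kinases *Gsk3a* (7.82 ± 0.03), *Gsk3b* (7.31 ± 0.14) and *Csnk1a1* (9.73 ± 0.17) expressed as well. Of the targets, *Nkd1* (3.09, 3.15 and 3.28), *Notum* (2.82, 2.79 and 2.80), *Rnf43* (2.84, 2.72 and 2.70) and the transcription factor *Lef1* (2.85, 2.91 and 2.88) were at background, as *Axin2* and *Lgr5* were. *Znrf3* (5.19, 5.47 and 5.43) and *Tcf7l2* (4.14, 5.08 and 4.68) were dim. Of 63 members measured, 13 were expressed and 30 were at background. *Wnt5a* and the inhibitor *Dkk1* were at background (3.38 ± 0.06 and 2.83 ± 0.05), and *Dkk2* was expressed at 6.95 ± 0.06.

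In the Notch and Hedgehog pathways 6 of 29 genes were expressed and 14 were at background, and 2 were expressed with the average of all probe sets or with the margin. *Notch1* (4.51, 4.76 and 4.40) and *Notch2* (4.11, 3.70 and 3.75) were dim, the ligand *Jag1* (2.82 ± 0.09) and the targets *Hes1* (3.25 ± 0.14) and *Hey1* (3.54 ± 0.02) were at background, and the DNA-binding partner *Rbpj* was expressed at 9.62 ± 0.01. *Smo* (8.09, 8.18 and 8.25) and *Ptch1* (6.29, 6.49 and 6.37), the signalling and the ligand-binding receptor of the Hedgehog pathway, were expressed. *Shh* (2.82 ± 0.09), *Ihh* (2.96 ± 0.07) and the target *Gli1* (3.47 ± 0.08) were at background.

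Nuclear receptors are transcription factors switched by steroids, retinoids and other small molecules. Of 42 measured, 9 were expressed. They were the glucocorticoid receptor *Nr3c1* (8.08, 7.98 and 7.91), the orphan receptors *Nr2f1* (6.25, 7.0 and 6.66), *Nr2f2* (8.47, 8.52 and 8.51) and *Nr2f6* (6.42 ± 0.11), the retinoid receptors *Rarg* (6.71, 6.68 and 6.61) and *Rxrb* (7.27 ± 0.08), the immediate early gene *Nr4a1* (7.08 ± 0.18), *Esrra* (6.06 ± 0.05) and the clock gene *Nr1d2* (8.62 ± 0.04). *Nr2f1* varied more than the others, being lowest on CTR 1. The receptors for sex steroids and mineralocorticoids gave no signal above the upper limit. *Esr2* (3.30 ± 0.16), *Pgr* (3.03 ± 0.17) and the mineralocorticoid receptor *Nr3c2* (2.80 ± 0.15) were at background, and *Esr1* read 3.52, 3.63 and 3.49, above the lower limit on CTR 2 only. The fatty acid receptors *Ppara* (2.94 ± 0.12) and *Pparg* (3.24 ± 0.10) were at background. The vitamin D receptor *Vdr*, which colon epithelium uses, was dim at 3.88, 3.75 and 3.69. *Rxra* was dim too, at 5.46, 5.60 and 5.61, above the upper limit on CTR 2 only.

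**Figure D2:**
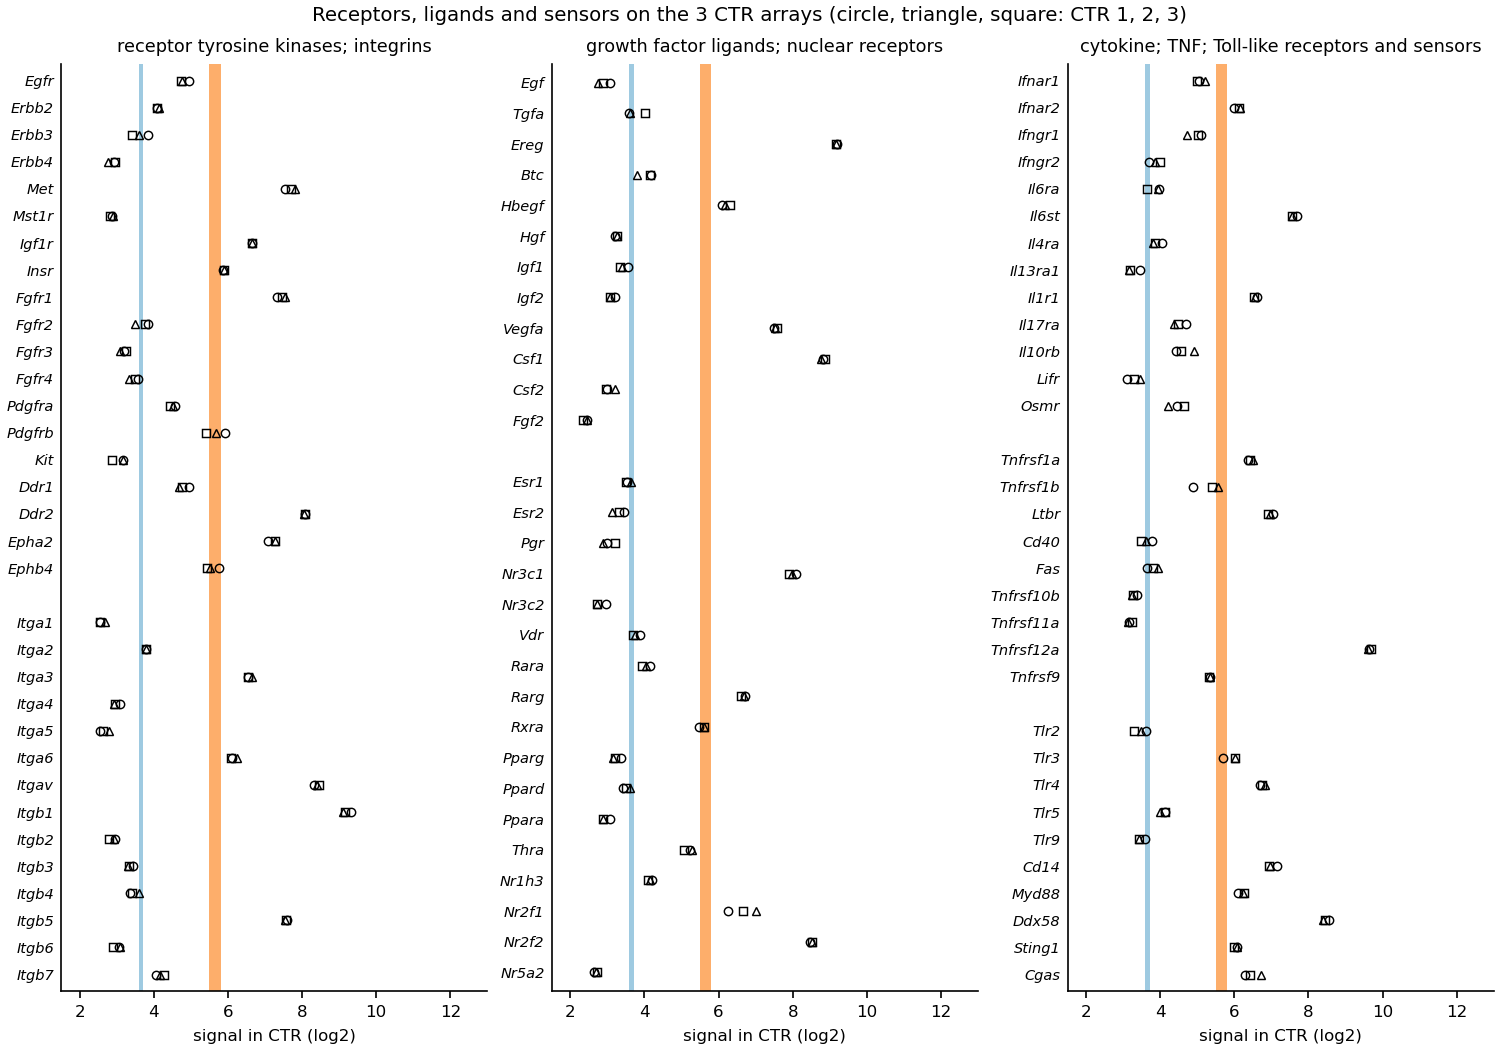
Signal (log2, x axis) of receptor, ligand and sensor genes on CTR 1 (circle), 2 (triangle) and 3 (square). The bands span the lower (blue) and upper (orange) limits. *Met*, *Ddr2*, *Igf1r* and *Fgfr1* lie right of the orange band, and the 4 ERBB genes lie left of it.

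Of 32 receptors for interferons and cytokines measured, 5 were expressed, 12 were dim and 12 were at background, and the count expressed was 2 with the average of all probe sets and 1 with the margin. The type I interferon receptor chains read 5.04, 5.22 and 5.0 (*Ifnar1*, dim) and 5.98, 6.15 and 6.13 (*Ifnar2*, expressed), and the interferon-γ receptor chain *Ifngr1* was dim at 5.09, 4.73 and 5.01. *Il6st*, the shared signal chain of the interleukin-6 family, was expressed at 7.69, 7.56 and 7.55, whereas *Il6ra* read 3.98, 3.95 and 3.65, above the lower limit on 2 of 3 arrays, and *Lifr* was at background (3.28 ± 0.17). The interleukin-1 receptor *Il1r1* was expressed at 6.60, 6.57 and 6.53.

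In the TNF receptor superfamily 4 of 27 genes were expressed and 14 were at background, and 2 were expressed with the margin. *Tnfrsf10b*, the mouse TRAIL receptor, was at background at 3.37, 3.24 and 3.27, and *Fas* read 3.64, 3.94 and 3.81, around the lower limit. *Tnfrsf1a* (6.37, 6.51 and 6.42), *Ltbr* (7.04, 6.97 and 6.91) and the TWEAK receptor *Tnfrsf12a* (9.64, 9.60 and 9.70) were expressed. The costimulatory receptor *Cd40* read 3.79, 3.61 and 3.49, around the lower limit.

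Of 23 Toll-like receptors and nucleic acid sensors, 11 were expressed (47.8%). With the margin of 1 log2 unit 4 were (17.4%, against 22.2% of all genes), and with the average of all probe sets 7 were (30.4%). They included *Tlr3* (5.70, 6.02 and 6.01) and *Tlr4* (6.70, 6.84 and 6.76), the sensors of double-stranded RNA and of lipopolysaccharide. *Tlr2* (3.46 ± 0.17) and *Tlr9* (3.48 ± 0.10) were at background, and *Tlr5* was dim at 4.08 ± 0.08. The cytosolic RNA sensor *Ddx58*, which encodes RIG-I, read 8.56, 8.39 and 8.44, and its relatives *Ifih1* (6.19 ± 0.12) and *Dhx58* (7.03 ± 0.16) were expressed. The cytosolic DNA sensor *Cgas* read 6.30, 6.73 and 6.41, and its partner *Sting1* read 6.07, 6.08 and 5.98. The adaptors *Myd88* (6.20 ± 0.08) and *Mavs* (6.34 ± 0.07) were above the upper limit too. By this limit a sensor and an adaptor were expressed for both RNA and DNA. By their mean signals, *Cgas*, *Sting1*, *Ifih1*, *Myd88* and *Mavs* missed the margin of 1 log2 unit.

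Of 40 chemokine and chemokine receptor genes, 28 were at background, 8 were dim and 3 were expressed. *Ccl2*, which draws monocytes, read 7.41, 7.06 and 7.32, *Ccl5* read 7.74, 7.66 and 7.69, and the interferon-induced *Cxcl10* read 8.14, 7.91 and 8.18. *Ccl7* (3.37 ± 0.15), *Cxcl1* (3.55 ± 0.05), *Cxcl5* (2.32 ± 0.05) and *Cxcl12* (3.09 ± 0.15) were at background, and so were the receptors *Ackr3* (3.45 ± 0.10) and *Cxcr2* (3.02 ± 0.13).

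Among 32 receptors for prostaglandins, adenosine, catecholamines, lysophospholipids and proteases, 3 were expressed. These were the thrombin receptor *F2r* (9.49, 9.78 and 9.72) and the lysophosphatidic acid receptors *Lpar1* (7.94, 7.85 and 7.80) and *Lpar6* (6.16, 6.35 and 6.22). The prostaglandin E2 receptors *Ptger1* (3.42 ± 0.05), *Ptger2* (2.65 ± 0.11), *Ptger3* (2.72 ± 0.05) and *Ptger4* (3.09 ± 0.12) were all at background.

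Integrins bind cells to the matrix as pairs of an α and a β chain. The expressed chains were *Itgb1* (9.33, 9.11 and 9.15), *Itgb5* (7.58, 7.53 and 7.56), *Itgav* (8.31, 8.40 and 8.45), *Itga3* (6.53, 6.65 and 6.55) and *Itga6* (6.10, 6.25 and 6.08), and *Itgbl1*, an integrin-like gene (8.31 ± 0.03). With the average of all probe sets 2 of the 25 genes of this list were expressed, against 6 here. The expressed chains include both chains of the laminin receptors α3β1 and α6β1 and of the vitronectin receptor αvβ5. *Itgb4*, the partner of α6 in hemidesmosomes of epithelia, read 3.36, 3.60 and 3.40, above the lower limit on CTR 2 only. *Itga5* (2.54, 2.78 and 2.62), *Itgb3* (3.44, 3.30 and 3.32), *Itgb6* (3.06, 3.08 and 2.91) and the leukocyte chain *Itgb2* (2.94, 2.93 and 2.79) were at background.

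MHC class I genes were partly expressed, and no class II gene was. Class I molecules show peptides from inside the cell to cytotoxic T cells, and class II molecules show peptides taken up from outside. Of 22 measured class I and antigen processing genes, 11 were expressed (50%), 3 were dim and 7 were at background. From the probe sets without a suffix, which fewer genes have, 6 were expressed. The heavy chain genes *H2-K1* (10.35, 10.17 and 10.23) and *H2-D1* (8.34, 8.17 and 8.25) were among them, although near-identical members of this family can share probes. The peptide loading gene *Tapbp* (8.48, 8.61 and 8.49) and the immunoproteasome genes *Psmb8* (6.86, 6.82 and 6.86) and *Psmb10* (7.52 ± 0.28) were expressed, and *Psmb9* (5.20, 5.38 and 5.44) and the class I activator *Nlrc5* (4.52, 4.53 and 3.93) were dim. None of 11 class II genes was expressed. The class II activator *Ciita* read 3.14, 3.30 and 3.18 and *H2-Aa* read 3.16, 3.12 and 3.37, at background, and the invariant chain gene *Cd74* was dim at 4.02, 3.94 and 3.78.

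Ligands of T cells and NK cells were sparse. *Cd274*, which encodes PD-L1, read 3.98, 3.58 and 3.86, on both sides of the lower limit, and *Pdcd1lg2* (3.07 ± 0.01) was at background. The costimulatory genes *Cd80* (3.16, 3.05 and 3.08) and *Cd86* (2.86, 2.72 and 2.88) were at background, and *Cd276* was dim at 5.14, 5.15 and 5.18. *Cd47*, the signal that restrains phagocytosis, read 9.46, 9.41 and 9.34, and *Pvr*, a ligand of NK cell receptors, read 7.99, 7.90 and 7.90. *Ido1* (2.74 ± 0.09), *Fasl* (2.94 ± 0.01) and the adhesion molecule *Icam1* (2.65 ± 0.08) were at background.

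The kinase cascade below RAS was largely expressed. Of 21 measured genes, 14 were expressed (66.7%), and 9 were with the average of all probe sets (42.9%, against 21.3% of all genes). *Nras* read 7.71, 7.56 and 7.42 and the related GTPase *Rras2* read 7.80, 7.83 and 7.67. *Braf* (6.55, 6.66 and 6.65), *Map2k1* (7.87, 8.11 and 8.04) and *Map2k2* (7.30, 7.28 and 7.20) were expressed, whereas *Araf* was dim at 4.74, 4.54 and 4.77. The exchange factors of blood cells and neurons *Rasgrp1*, *Rasgrp2* and *Rasgrf1* were at background.

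Of 31 genes that ERK switches on, many of which feed back on it, 22 were expressed (71%), and 16 were with the average of all probe sets (51.6%). This share was the largest of the 35 lists. The lists were chosen with earlier results of these data known, so the rank is a description only. The ERK phosphatase *Dusp6* read 8.78, 9.0 and 8.98, with *Dusp4* at 8.45, 8.38 and 8.39. The inhibitors *Spry2* (7.15, 7.17 and 7.24) and *Spry4* (7.16, 7.70 and 7.61) and the factors *Etv5* (7.09, 7.09 and 7.20) and *Fosl1* (7.46, 7.66 and 7.72) were expressed. *Etv4* was dim at 4.34, 4.27 and 4.24. *Hmga2*, a chromatin protein of embryonic and transformed cells, read 9.27, 9.47 and 9.42, and *Phlda1* read 7.03, 7.57 and 7.45. *Ccnd1* (10.31 ± 0.14) and *Myc* (8.79 ± 0.10) stood in the same list. Phosphorylated ERK itself was not measured on these arrays.

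Among 54 other proto-oncogenes 28 were expressed, and 16 were with the average of all probe sets. *Myc* read 8.68, 8.81 and 8.89, and its paralogs *Mycl* (3.18, 3.20 and 3.13) and *Mycn* (3.68, 3.72 and 3.65) were at background and at the lower limit. All 3 D-type cyclins were expressed, *Ccnd1* at 10.16, 10.43 and 10.34, *Ccnd2* at 8.93, 8.97 and 9.05 and *Ccnd3* at 6.20, 6.42 and 6.34, with both of their kinases *Cdk4* (9.26 ± 0.09) and *Cdk6* (7.38 ± 0.10). *Pik3ca* (7.06 ± 0.10) was expressed, and *Pik3cd* (3.46 ± 0.04) and *Pik3cg* (3.35 ± 0.21), the kinase chains of leukocytes, were at background. The survival genes *Mcl1* (9.18, 9.30 and 9.29) and *Bcl2l1* (7.55, 7.61 and 7.48) were expressed, and *Bcl2* was dim at 3.95, 3.80 and 3.93. The Hippo effectors *Yap1* (7.32 ± 0.06) and *Wwtr1* (8.18 ± 0.05) were expressed. *Lmo1*, a transcriptional cofactor known from T cell leukaemia and neuroblastoma, was expressed at 8.18, 8.20 and 8.22. *Myb* (2.21, 2.15 and 2.27), which immature colon cells use, and *Tert* (2.92, 2.98 and 3.05) were at background.

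Of 72 tumour suppressor genes, 37 were expressed, 19 were dim and 15 were at background. The count expressed was 22 with the average of all probe sets and 22 with the margin (30.6% each). Those expressed included *Apc*, *Smad4* and *Tgfbr2*, given above, the mismatch repair genes *Msh6* (6.80 ± 0.22) and *Pms2* (5.95 ± 0.10), *Brca1* (6.13 ± 0.27), *Brca2* (6.36 ± 0.03), *Arid1a* (7.78 ± 0.12), *Stk11* (6.07 ± 0.08) and *Rb1* (5.60, 5.77 and 5.81), the last by a narrow margin on CTR 3. *Fbxw7* was dim at 3.77, 4.20 and 3.81. *Dcc* (3.14 ± 0.17), *Wt1* (2.36 ± 0.10) and *Nf1* (3.01 ± 0.16) were at background.

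The cyclin-dependent kinase inhibitors differed within their families. *Cdkn1a* (7.85, 7.92 and 7.78), *Cdkn1b* (7.19, 7.30 and 7.35), *Cdkn2c* (7.44, 7.61 and 7.58) and *Cdkn2d* (6.76 ± 0.17) were expressed. *Cdkn1c* was at background at 2.64, 2.64 and 2.68. *Cdkn2a*, which encodes p16 and p19Arf, read 2.76, 2.41 and 2.50, and *Cdkn2b*, which encodes p15, read 2.60, 2.70 and 2.93, both at background on all 3 arrays. On mouse chromosome 4 (GRCm38.p6) *Cdkn2a* spans 89274473 to 89294619 and *Cdkn2b* spans 89306289 to 89311032. Their neighbour *Mtap*, a methionine salvage enzyme at 89137370 to 89181090, read 10.04, 10.08 and 10.08, and all 4 of its probe sets were above the upper limit. On the far side, *Dmrta1* at 89688198 to 89694766 read 3.18, 3.54 and 4.27, above the lower limit on CTR 3 only. *Cdkn2a* and *Cdkn2b* rest on 1 probe set each, *Dmrta1* was chosen after its values were seen, and DNA copy number was not measured.

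Isoform families were read by tissue form. Of 31 glycolytic and gluconeogenic isoenzyme genes 13 were expressed, or 6 from the probe sets without a suffix. *Hk1* (7.37, 7.79 and 7.70) and *Hk2* (7.81, 7.81 and 7.80) were expressed, and *Hk3* was dim (4.13 ± 0.26). *Pfkl* (6.82, 7.17 and 7.26) and *Pfkp* (7.03, 7.22 and 7.15), the liver and platelet phosphofructokinases, were expressed, and the muscle form *Pfkm* read 5.63, 5.73 and 5.78, around the upper limit. *Aldoa* (11.20 ± 0.08) was expressed and *Aldoc* (4.39 ± 0.02) was dim. *Ldha* (11.69, 11.74 and 11.82) was expressed, *Ldhb* (4.94, 4.91 and 4.66) was dim and the testis form *Ldhc* (2.82, 2.65 and 2.62) was at background. The mitochondrial form of phosphoenolpyruvate carboxykinase *Pck2* read 8.59, 8.59 and 8.59, and the cytosolic form *Pck1* read 2.65, 2.77 and 2.79, at background. *Fbp1* (2.91 ± 0.16) and the liver pyruvate kinase *Pklr* (3.50 ± 0.17) were at background. *Eno2* was the isoenzyme gene that varied most here, at 4.89, 5.77 and 5.62.

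Of 27 sugar and lactate carrier genes 6 were expressed and 16 were at background. *Slc2a1*, the glucose carrier of most growing cells, read 9.36, 9.44 and 9.48, and *Slc2a2* (2.52 ± 0.10), *Slc2a3* (2.91 ± 0.22), *Slc2a5* (3.06 ± 0.12) and the sodium-coupled *Slc5a1* (2.84 ± 0.13) were at background. *Slc16a1*, the carrier MCT1 for lactate and pyruvate, read 9.89, 9.94 and 9.90, whereas *Slc16a3*, the exporter MCT4, was at background at 3.52, 3.30 and 3.38. Their chaperone *Bsg* was expressed at 9.47, 9.22 and 9.24.

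In mitochondria the common forms *Cox4i1* (11.01 ± 0.06) and *Cox6a1* (11.33, 11.16 and 11.23) were expressed. Their tissue forms *Cox4i2* (3.85, 3.48 and 3.59) and *Cox6a2* (5.65, 5.47 and 5.52) were not, although *Cox6a2* lay close to the upper limit. Both nucleotide carriers *Slc25a4* (10.84 ± 0.05) and *Slc25a5* (10.38 ± 0.02) were expressed. *Cpt1a* (7.22, 7.15 and 7.19) was expressed and the muscle form *Cpt1b* (3.04, 3.19 and 3.10) was at background, and *Pdk1* (6.56, 6.82 and 6.73) was expressed and *Pdk4* (2.57, 2.43 and 2.51) was at background.

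The cytoskeleton held the general actins and tubulins and 1 neuronal pair. *Actb* (12.03 ± 0.07), *Tubb5* (10.61 ± 0.10), *Tubb6* (8.59 ± 0.07), *Lmna* (9.47 ± 0.04) and *Myh9* (7.80 ± 0.08) were expressed, and the muscle actins *Acta1* (3.01 ± 0.04) and *Actg2* (2.79 ± 0.07) were at background. The neurofilament genes *Nefl* (7.84, 7.90 and 7.93) and *Nefm* (7.92, 8.08 and 8.08), chosen after their values were seen, were expressed, while *Nefh* (2.82 ± 0.06) and *Nes* (2.57 ± 0.05) were at background. *Tubb3*, a neuronal tubulin, was dim at 4.91, 4.77 and 4.69.

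**Figure D3:**
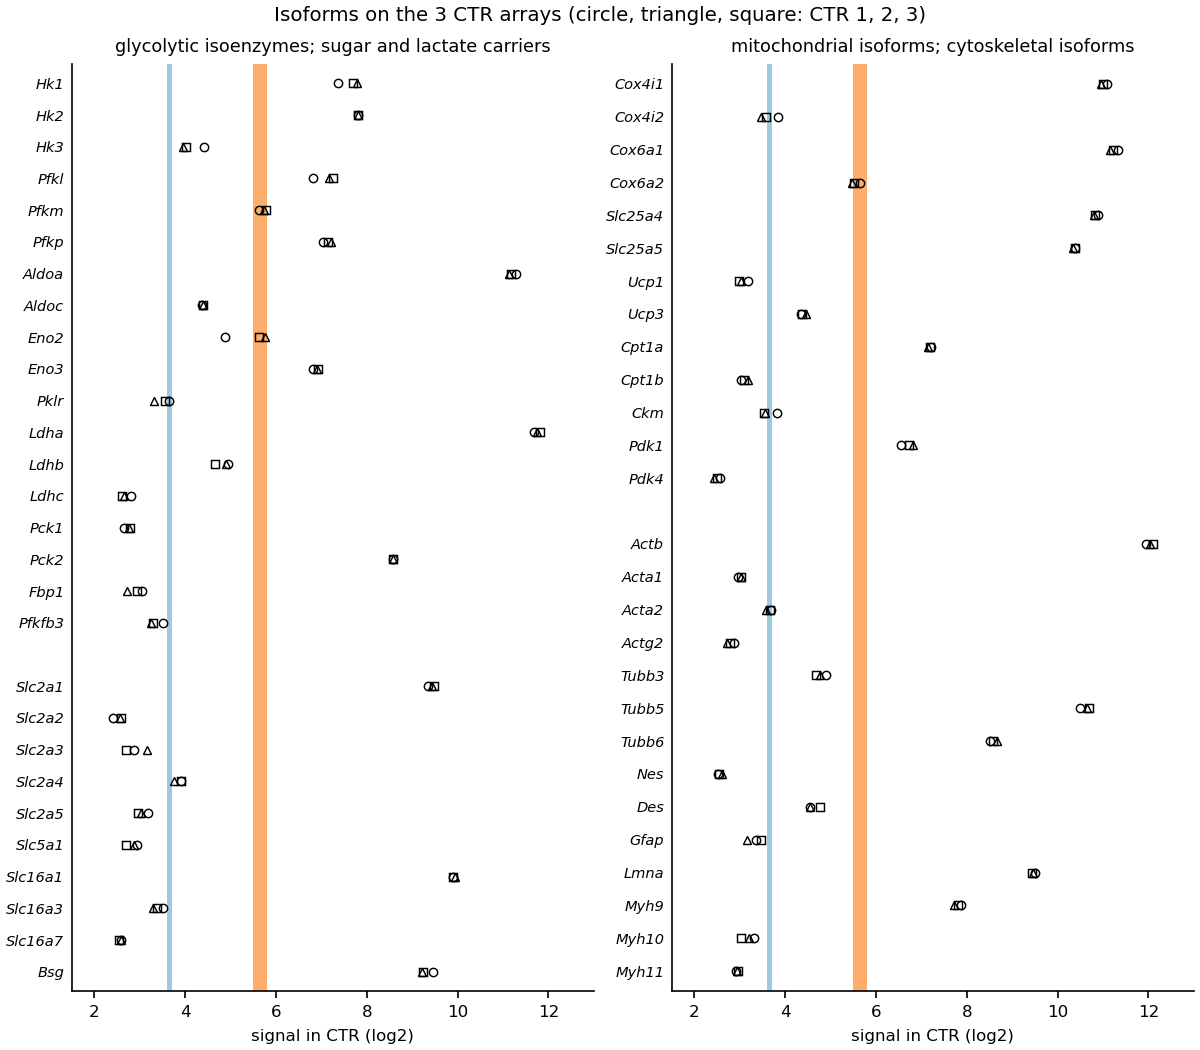
Signal (log2, x axis) of isoform genes on CTR 1 (circle), 2 (triangle) and 3 (square), with the lower (blue) and upper (orange) limits as bands. *Slc2a1* and *Slc16a1* lie right of the orange band, and *Slc2a2*, *Slc2a3* and *Slc16a3* lie left of the blue one.

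Developmental and germ cell antigens were at background in 21 of 26 cases. *Pou5f1* (2.28 ± 0.10), *Nanog* (2.71 ± 0.06) and the germ cell genes *Ddx4* (2.31 ± 0.09), *Dazl* (2.63 ± 0.14) and *Sycp3* (2.23 ± 0.10) were at background. *Sox2*, a pluripotency factor, was expressed without them at 6.80, 6.99 and 6.90, and the mesothelial antigen *Msln* (6.71, 6.62 and 6.36) and *Maged1* (7.87 ± 0.07) were expressed. None of 34 measured HOX genes was expressed, 10 were dim and 21 were at background. The posterior genes of the hindgut *Hoxa13* (2.56, 2.45 and 2.50), *Hoxb13* (2.91, 2.93 and 2.93) and *Hoxd13* (2.99, 2.64 and 2.65) were at background, and *Hoxa5* (4.45, 4.83 and 4.84), *Hoxa9* (4.69, 4.62 and 4.73) and *Hoxa10* (4.21, 4.62 and 4.25) were dim.

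**Figure D4:**
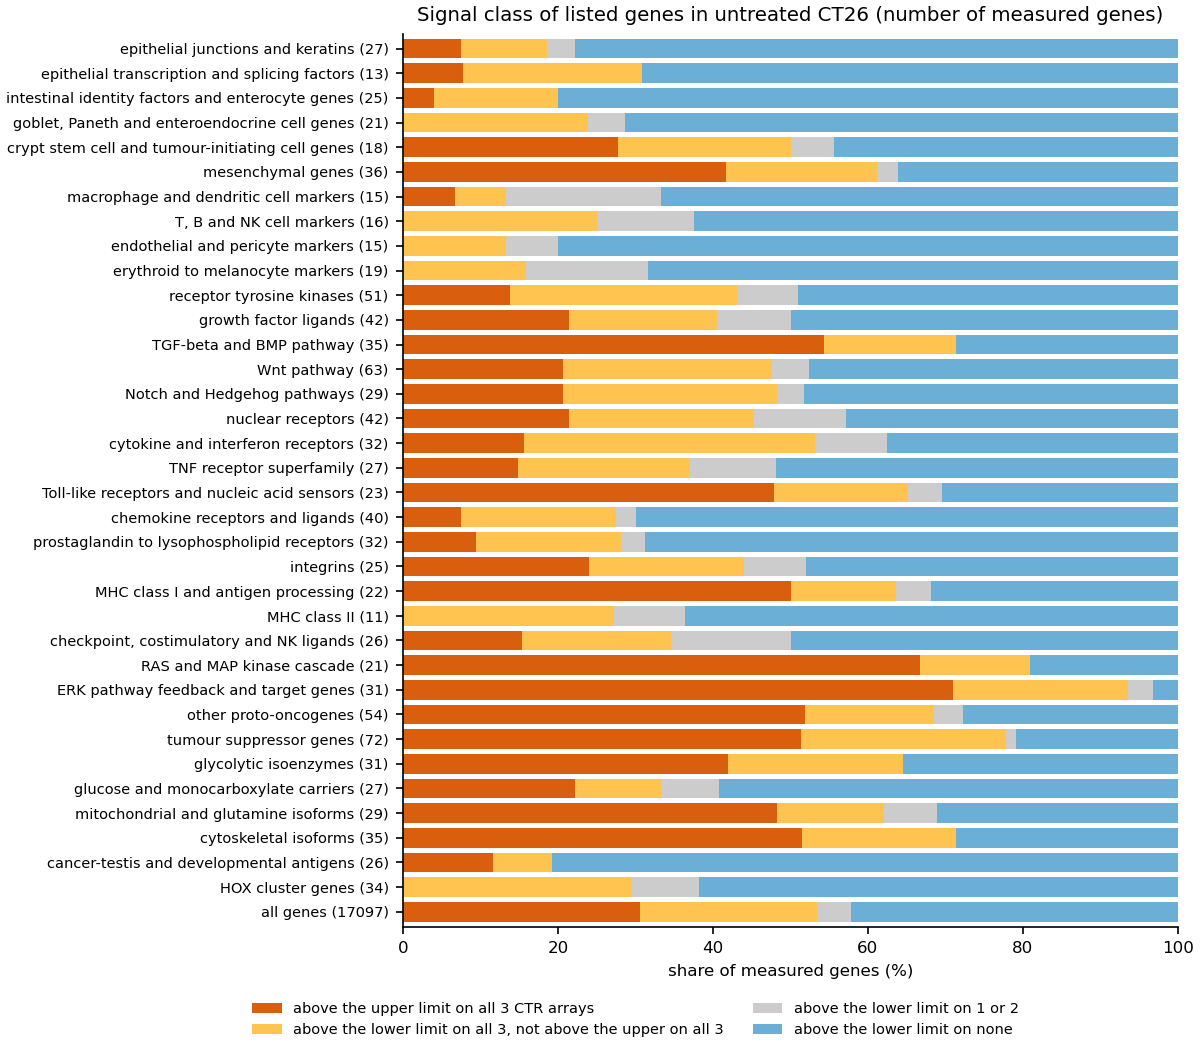
Share of measured genes (%) in each signal class on the CTR arrays, 1 bar a list, with the number of measured genes in brackets and all 17097 genes at the bottom. Expressed genes (dark orange) make 71% of ERK target genes, 54.3% of the TGF-β and BMP list (22.9% with the average of all probe sets) and 7.41% of epithelial junction genes, against 30.6% of all genes. The lists were chosen with earlier results of these data known.

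The 3 CTR arrays differed little from each other. Over all genes the root mean square difference was 0.205 between CTR 1 and 2, 0.175 between CTR 1 and 3 and 0.15 between CTR 2 and 3, and the median SD of an expressed gene was 0.0847. CTR 1 was the farthest array for 2560 of the 5228 expressed genes and for all 10 of those with the largest SD. The immediate early gene *Egr1* read 7.94, 9.07 and 8.86, *Ccn1* read 8.45, 9.23 and 9.18 and *Ccng2* read 6.26, 7.15 and 6.94, each lowest on CTR 1. *Ddit3*, a factor of the unfolded protein response, read 9.43, 8.41 and 8.83 and was highest on CTR 1. The others, *Pitrm1*, *Esm1*, *Mospd2*, *Flywch1*, *Tspyl1* and *Lasp1*, had SDs between 0.41 and 0.58, with CTR 1 the farthest array. Of these 10 genes *Egr1* has the largest SD, 0.60.

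The baseline classes were set against the treated groups, which share these CTR arrays. Of the 5228 genes expressed in CTR, 4651 (89%) were above the upper limit of their array on all 12 arrays. In limma over all 17097 genes, with an adjusted p under 0.05, 9.75% rose and 6.74% fell in STS, 17.5% rose and 13.9% fell in OXP, and 16.4% rose and 14.2% fell in STS+OXP. These shares are the background for the counts that follow. Genes with a clear signal passed more often. Another fit took only the 6231 genes above the upper limit on all 3 arrays of at least 1 group. There 1449 rose and 986 fell in STS, 2286 rose and 1787 fell in OXP, and 2120 rose and 1922 fell in STS+OXP. Lists with a larger expressed share than the 30.6% of all genes are to be read against these counts too. One OXP array stood apart in RNA quality, since the 3′ to 5′ difference of *Gapdh* was 3.85 on OXP replicate 1 and between -0.12 and 0.28 on the other 11 arrays. Without that array 5496 genes passed in OXP, against 5377 with it.

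Few epithelial genes passed the test in the treated groups. Of 27 junction and keratin genes, 1 rose and 1 fell in STS, 3 rose in OXP and 3 rose in STS+OXP. Since 21 of the 27 were at background in CTR, a fall could hardly be seen. The low counts therefore do not show that the epithelial state was stable. The largest rise was that of plakoglobin, *Jup*, which was dim in CTR at 5.46 ± 0.13 and rose by 0.88 ± 0.11 (log2 change ± SE, limma adjusted p = 3.61e-05) in STS+OXP. *Cdh1* had mean signals of 2.31 (STS), 2.30 (OXP) and 2.25 (STS+OXP), and passed the test in none of them. Of 25 intestinal identity genes, 1 rose and 1 fell in STS, 1 fell in OXP and 2 rose with both treatments. The same limit holds here, since 20 of the 25 were at background in CTR.

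Of 36 mesenchymal genes, 13 rose and 1 fell in STS, 13 rose and 2 fell in OXP, and 10 rose and 1 fell in STS+OXP. Their median log2 change was 0.15, 0.14 and 0.08, and that of all genes was -0.03, -0.01 and 0.0. *Fn1* rose by 1.16 ± 0.11 in STS (adjusted p = 8.02e-06). In the groups with oxaliplatin *Cdh2* fell by 1.68 ± 0.13 in OXP (adjusted p = 2.69e-07) and fell by 2.05 ± 0.13 in STS+OXP (adjusted p = 3.96e-08).

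In the class I list of 22 genes, of which 11 were expressed in CTR, 12 rose and 2 fell in STS. In OXP 11 rose and 1 fell, and with both treatments 12 rose and 1 fell. *Nlrc5*, dim in CTR, rose by 2.10 ± 0.15 in STS (adjusted p = 3.99e-07), by 2.59 ± 0.15 in OXP (adjusted p = 1.24e-08) and by 2.49 ± 0.15 in STS+OXP (adjusted p = 1.76e-08). *Myc* fell by 0.79 ± 0.10 in STS (adjusted p = 7.85e-05), fell by 0.96 ± 0.10 in OXP (adjusted p = 3.48e-06) and fell by 0.92 ± 0.10 with both (adjusted p = 5.21e-06). Of 31 ERK target genes, 22 were expressed in CTR. Their counts come from the fit of all genes and are to be read against those of the 6231-gene fit. In STS 14 rose and 4 fell, in OXP 16 rose and 6 fell, and with both treatments 16 rose and 5 fell. Their median log2 changes were 0.30, 0.40 and 0.44. *Spry4* rose by 1.48 ± 0.15 in STS (adjusted p = 1.76e-05), by 1.31 ± 0.15 in OXP (adjusted p = 1.3e-05) and by 1.45 ± 0.15 in STS+OXP (adjusted p = 4.99e-06). Of 23 Toll-like receptors and sensors, 11 were expressed in CTR. Of the 23, 5 rose and 1 fell in STS, and 12 rose and 1 fell in each of the oxaliplatin groups. *Tlr3* rose by 2.23 ± 0.09 in STS (adjusted p = 6.31e-09) and by 2.08 ± 0.09 in OXP (adjusted p = 1.75e-09).

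Among the glycolytic isoenzyme genes that passed, more fell than rose. Of 31, 1 rose and 5 fell in STS, 3 rose and 10 fell in OXP, and 3 rose and 11 fell with both treatments. In CTR 13 of the 31 were expressed. *Hk2* fell by 0.83 ± 0.12 in STS (adjusted p = 0.000286) and fell by 2.22 ± 0.12 in OXP (adjusted p = 8.48e-09), where 1 of 3 arrays was no longer above the upper limit. *Hk1* rose by 1.09 ± 0.13 in OXP (adjusted p = 1.66e-05), so the hexokinase expressed together with it in CTR moved in the opposite direction. The carrier *Slc2a1* fell by 0.94 ± 0.10 in STS (adjusted p = 2.14e-05).

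Of 72 tumour suppressor genes, 37 were expressed in CTR. In STS 17 of the 72 rose and 1 fell, and in OXP 16 rose and 13 fell. *Cdkn1a*, already expressed in CTR, rose by 2.95 ± 0.07 in OXP (adjusted p = 8.83e-12) and had a difference of -0.04 ± 0.07 in STS (adjusted p = 0.791). *Fas*, around the lower limit in CTR, rose by 2.71 ± 0.19 in OXP (adjusted p = 9.04e-08) and had a difference of -0.24 ± 0.19 in STS that missed the threshold (adjusted p = 0.457).

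Some genes that passed the upper limit on no CTR array passed it under treatment, and most of them were dim in CTR. Of the 11111 genes above the upper limit on no CTR array, 189 rose by limma and were above the upper limit on all 3 arrays of STS (1.70%), 274 met this in OXP (2.47%) and 199 met it in STS+OXP (1.79%). Of these, 182, 258 and 190 were dim in CTR. Genes chosen for a low CTR signal can only be seen to rise. The counts, and the p-values of the gained genes named below, are therefore descriptions. From above the lower limit on no CTR array to above the upper limit on all 3 treated arrays, 1 gene passed in STS, 7 passed in OXP and 5 passed with both treatments. The OXP count was 591 without OXP replicate 3 and 288 without OXP replicate 1, and the STS+OXP count was 330 without STS+OXP replicate 3. Replicate 3 had the highest upper limit in both groups, 5.71 for OXP replicate 3 and 5.88 for STS+OXP replicate 3.

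*Csprs*, a gene of a multicopy cluster, was the 1 gene to pass from below the lower limit in STS, from 2.91, 3.24 and 3.16 in CTR to 6.87, 7.10 and 7.09 in STS. Its log2 change was 3.92 ± 0.27 (limma adjusted p = 3.47e-07). In OXP the 7 were *Cryab*, *Anxa8*, *Ces2e*, *Csprs*, *Cd80*, *Hoatz* and *Celf5*, and the 5 in STS+OXP were *Cryab*, *Csprs*, *Ces2e*, *Cd80* and *Anxa8*. By the methods' t-test *Anxa8* (adjusted p = 0.0986) and *Csprs* (adjusted p = 0.0943) missed the threshold in OXP. *Cryab*, a small heat shock protein, read 2.71, 3.05 and 3.10 in CTR and 8.15, 7.85 and 7.85 in OXP, and its log2 change was 5.0 ± 0.11 (adjusted p = 5.19e-12). *Cd80* read 6.84, 6.69 and 6.71 in OXP, a change of 3.65 ± 0.10 (adjusted p = 2.21e-11), and in STS it read 3.16, 2.74 and 2.99, below the lower limit of each array.

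Others started from a signal between the limits or around the lower one. The matrix genes *Ogn* and *Omd* and the lipocalin *Apod* rose in STS by 4.49 ± 0.48 (adjusted p = 2.28e-05), 3.24 ± 0.36 (adjusted p = 3.35e-05) and 4.0 ± 0.40 (adjusted p = 1.36e-05). *Ogn* read 8.0, 10.40 and 7.79 on OXP 1, 2 and 3, and *Apod* read 7.88, 9.89 and 7.71, so that replicate 2 lay above the other OXP arrays. By the methods' t-test *Ogn* missed the threshold in OXP (adjusted p = 0.181). *Dcxr*, a carbonyl reductase, was dim at 4.64, 4.61 and 4.55 in CTR and read 9.34, 9.45 and 9.73 in OXP. The glucose-regulated *Txnip* read 3.96, 4.74 and 4.58 in CTR and 8.97, 8.32 and 8.87 in OXP, a change of 4.29 ± 0.18 (adjusted p = 1.09e-09). In STS *Prss23* and *Cemip* were the remaining 2 of the 6 largest, the latter from 3.24, 3.58 and 3.86 in CTR, around the lower limit. Their changes were 3.20 ± 0.41 (adjusted p = 0.00011) and 3.05 ± 0.26 (adjusted p = 3.08e-06).

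**Figure D5:**
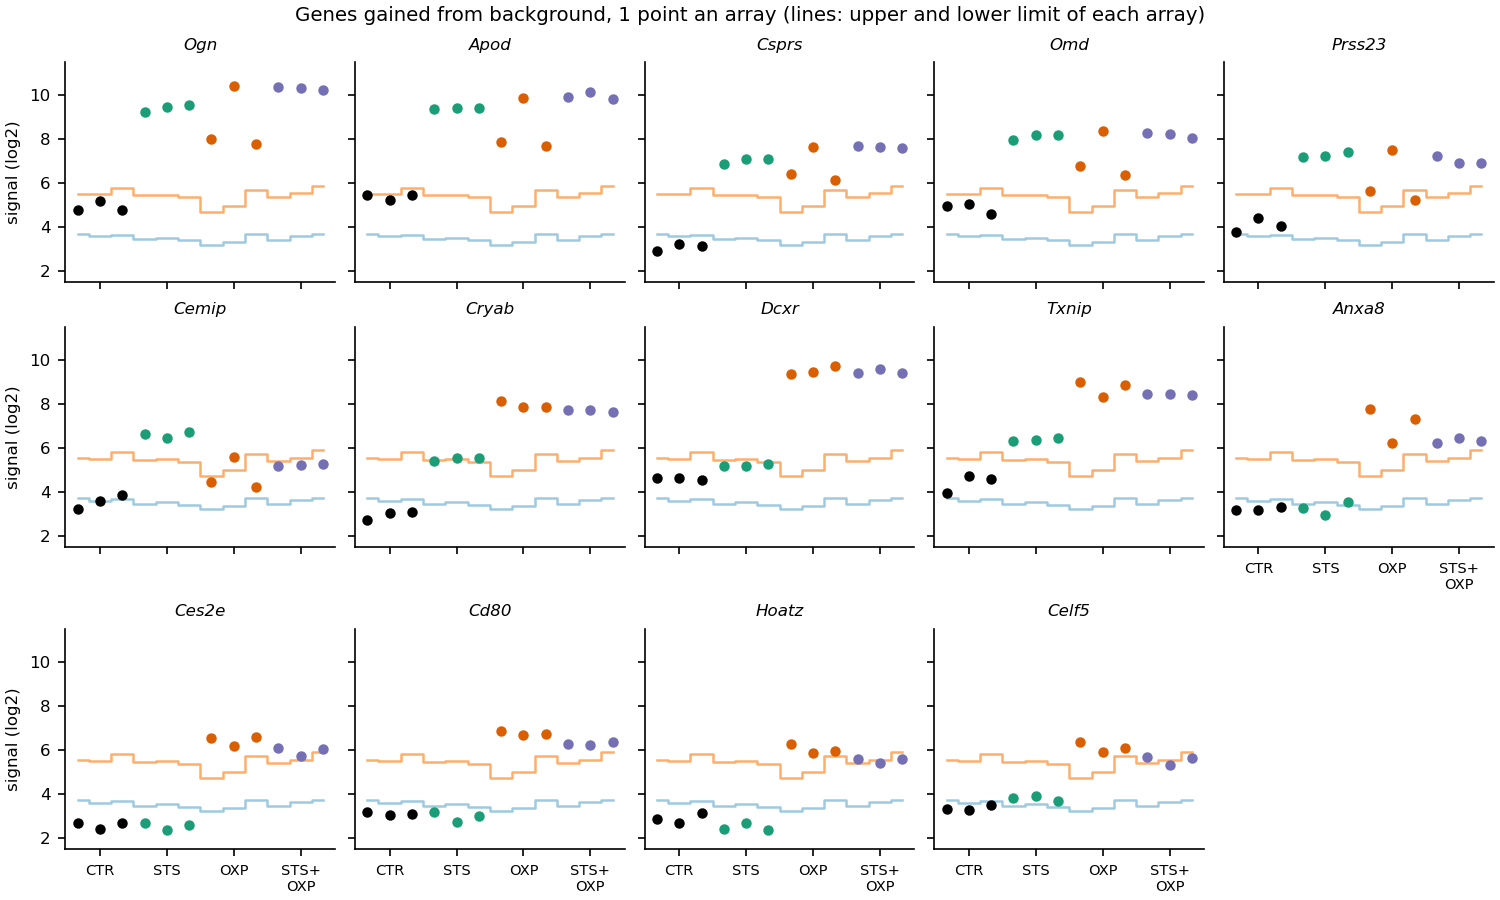
Signal (log2, y axis) of the named gained genes on the 12 arrays, 1 point an array, with replicates 1 to 3 from left to right in each group. The orange and blue lines are the upper and lower limit of each array. *Csprs*, *Cryab*, *Anxa8*, *Ces2e*, *Cd80*, *Hoatz* and *Celf5* lie below the blue line on all 3 CTR arrays.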

How the data were processed

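Total RNA of CT26 cells (4 groups of 3 samples) was labelled with a 3′ IVT Express kit and hybridised to a mouse perfect-match array. The deposited values are log2 signals of 45141 probe sets, which the authors made with RMA in R 3.02 according to the submitters' processing notes. Image files were not used here. No depth applies to arrays, and their number limits the precision.

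Probe sets naming several genes (551) or none (15588) were left out, and the 28898 others gave 17097 genes. The background was taken per array from 23 nonspecific GC control sets. The 35 gene lists name 1168 genes, of which 1021 were measured. Members and lists were chosen with earlier results of these data known. Named genes were the anchors of each list, up to 4 further expressed members, the 6 largest gained genes per comparison, the 10 expressed genes with the largest SD and the 15 with the highest signal. *Bmp2*, *Bmpr2*, *Cdkn2d*, *Dcn*, *Dkk2*, *Dmrta1*, *Esrra*, *Fap*, *Jup*, *Lum*, *Nefh*, *Nefl*, *Nefm*, *Ntrk2*, *Pdia3*, *Pik3cg*, *Postn*, *Rasgrf1*, *Rasgrp1*, *Rasgrp2* and *Tgfb2* were named after their values were seen.

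All 12 arrays entered 1 limma 3.58.1 fit (R 4.3.3) with 4 group means and Benjamini-Hochberg adjustment over all genes, and the script was tested on simulated data. A gene was called at an adjusted p under 0.05. Each treated group was compared with CTR, so the 3 comparisons share the CTR arrays. Symbols, coordinates and promoter windows were matched by symbol to RefSeq tables of GRCm38.p6. Scaling, probe set choice, background, model and left-out arrays were varied. Python 3.11.15, pandas 2.3.3 and matplotlib 3.10.9 were used.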

Additional observations from a re-analysis of the deposited data

How the results depend on the processing

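The number of expressed genes, 5228, depended most on the background chosen. With the median of the nonspecific controls it was 16183, and with the lower limit, added after the data were seen, it was 9139. Leaving out 1 CTR array gave 5230 to 5632. Counts of genes called against CTR were 2819 (STS), 5377 (OXP) and 5230 (STS+OXP). They became 715, 1034 and 3165 by the methods' t-test after adjustment, and 4400 in STS with array quality weights. With 1 array left out they ranged over 1937 to 3527, 4666 to 5496 and 4576 to 5860. Counts of gained genes (189, 274 and 199) became 63 in STS and 98 in OXP by the methods' t-test. They were 41, 88 and 66 with a percentile of the odorant receptor genes as background, and 1, 7 and 5 when the lower limit had to be unmet on every CTR array, an alternative added after the data were seen. With 1 array left out they ranged over 168 to 278, 266 to 591 and 197 to 330. The cause of these shifts was not tested.

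Arrays with the same number did not deviate together across groups (1 of 18 pairs of arrays correlated above 0.1, at 0.102), and the main fit used no pairing. With 3 arrays a group this cannot show that the numbers carry no pairing. With the replicate number as a block the counts of called genes were 2640, 5251 and 5110, and the gained counts were 184, 273 and 199. In OXP 3 named gained genes missed the threshold by the methods' t-test: *Anxa8* (adjusted p = 0.0986), *Ogn* (adjusted p = 0.181) and *Csprs* (adjusted p = 0.0943).

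Mean CTR signals were checked for the 367 anchors of the lists and not for the other named genes. Of these 367, 172 moved by more than 1 SD when all probe sets of a gene were averaged, and 19 did with cyclic loess. None did when 1 CTR array was left out, but that setting cannot decide the question. With so few arrays, dropping 1 always shifts the mean by less than 1 SD. Of the signals with a probe set without a suffix, 37 moved with that choice and 271 did not. Of the 35 list counts, 9 moved by over 1.5 times with the average of all probe sets, 9 with the probe sets without a suffix, 6 with the margin of 1 log2 unit, 25 with the lower limit and 33 with the median of the controls. A level near either limit is uncertain.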

Other observations

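The 15 genes with the highest CTR signal, given here in no order because probe sets differ in response, were mostly of the translation machinery. They were *Rps6*, *Rps4x*, *Rps18*, *Rps29*, *Rpl41*, *Rpl23*, *Rpl7a* and *Rplp1*, which encode ribosomal proteins, *Eif3f*, *Eef1a1* and *Pabpc1*, which act in initiation, elongation and poly(A) binding, and *Lgals1*, *Ppia*, *Vim* and *Fth1*. *Lgals1* encodes a lectin that mesenchymal cells make, *Ppia* a prolyl isomerase and *Fth1* the heavy chain of ferritin.

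*Dmrta1*, next to *Cdkn2b* and at the lower limit in CTR, had a mean signal of 5.66 (STS), 5.58 (OXP) and 5.88 (STS+OXP), and no array of these groups lay at or under the lower limit.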
